A study of Mus musculus with 20 samples.

Results

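Among the largest kidney changes after oxaliplatin, a platinum chemotherapy drug, were 6 genes of which little is known in that organ: Cdhr1, 2610528A11Rik, Pzp, Anks1b, Gm6300 and Gm31774. They were taken by symbol from the raw count tables of kidney and bone marrow, and these 6 genes were found among the 55486 genes of each table. The members were chosen by the size of their kidney log2 fold change between treatments, so the kidney differences between treatments are given below as descriptions without a test, and the bone marrow contrast is tested, being the one the kidney ranking did not use, although its results were known when the members were chosen. C57BL/6 mice, 10 weeks old at the start, received 10 mg/kg oxaliplatin in 5% dextrose or 5% dextrose alone (vehicle) by intraperitoneal injection over 8 weeks. RNA of the whole kidney or of bone marrow was sequenced after removal of ribosomal RNA, with 5 libraries for each tissue and treatment and 20 in all. Each library is a biological replicate of its group, numbered 1 to 5. The labels do not tie a kidney library to a marrow library of the same mouse, and equal numbers in the vehicle and oxaliplatin groups are different mice.

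Cdhr1 is a cadherin-related membrane protein known from the retina, where it sits at the base of the photoreceptor outer segment. 2610528A11Rik, also named Gpr15l, encodes a small secreted peptide of barrier epithelia that activates the receptor GPR15 on lymphocytes. Pzp is a large secreted protease inhibitor of the alpha-2-macroglobulin family that traps proteases, and Anks1b is an adaptor protein with ankyrin repeats and SAM domains that is best known at synapses. Gm6300 is annotated as an unprocessed pseudogene and Gm31774 as an antisense RNA. In mice many genes of the kidney proximal tubule, among them the abundant Kap, are kept high by androgens, while bone marrow is largely made of developing blood cells.

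Positions refer to GRCm38. Cdhr1 (ENSMUSG00000021803) lies at chr14:37077857-37098347 on the minus strand with 17 exons, and 2610528A11Rik (ENSMUSG00000096001) at chr14:37102140-37114022 on the same strand. The end of 2610528A11Rik and the start of Cdhr1 are 3.79 kb apart, so that 2610528A11Rik is the upstream neighbour and is transcribed toward Cdhr1. Pzp (ENSMUSG00000030359) is at chr6:128483567-128526720, minus strand, and shares 303 of its 6414 exon bases with Gm10069 on the opposite strand. Anks1b (ENSMUSG00000058589) spans chr10:89873509-90973300 on the plus strand, with 33 transcripts listed in the tables. Gm6300 (ENSMUSG00000104375) is at chr3:14363117-14377587, plus strand. Gm31774 (ENSMUSG00000110494) is at chr8:117746331-117748260, minus strand, inside introns of Hsd17b2, with no exon base in common with it.

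The sequences that bear on these genes are shown first. The 237 coding bases of 2610528A11Rik (transcript 2610528A11Rik-201, GENCODE M21, chr14:37102606-37110048, minus strand, introns removed) are printed because the gene is known mostly by a clone name. They hold 78 codons before the stop, and the start and stop codons are in capitals.
2610528A11Rik-201 coding sequence: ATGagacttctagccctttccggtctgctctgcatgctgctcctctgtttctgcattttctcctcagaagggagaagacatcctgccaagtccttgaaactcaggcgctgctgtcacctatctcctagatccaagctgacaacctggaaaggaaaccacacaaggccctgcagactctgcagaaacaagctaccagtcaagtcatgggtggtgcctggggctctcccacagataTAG
The 250 bases before the RefSeq start of the adjacent pair follow (RefSeq, GRCm38.p6, both minus strand), since the pair rose in the same libraries. Capitals mark matches to any of the motifs searched on both strands: the core hypoxia response element ACGTG, the AP-1 site TGANTCA, the TATA box TATAAA, the GC box GGGCGG, the CCAAT box and, by its consensus, the p53 decamer.
2610528A11Rik, chr14:37110102-37110351: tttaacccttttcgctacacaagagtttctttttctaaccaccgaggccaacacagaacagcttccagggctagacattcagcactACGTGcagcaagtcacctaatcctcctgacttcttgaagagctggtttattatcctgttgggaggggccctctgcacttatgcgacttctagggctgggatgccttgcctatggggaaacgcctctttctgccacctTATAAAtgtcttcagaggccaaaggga
Cdhr1, chr14:37098348-37098597: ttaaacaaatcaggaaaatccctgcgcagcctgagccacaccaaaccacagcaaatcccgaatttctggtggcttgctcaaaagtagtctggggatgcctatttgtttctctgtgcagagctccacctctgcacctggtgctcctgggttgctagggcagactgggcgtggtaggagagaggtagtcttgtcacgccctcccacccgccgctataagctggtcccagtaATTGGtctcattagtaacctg
The 2610528A11Rik window held ACGTG 164 bases before the start and TATAAA 27 bases before it, whereas the Cdhr1 window held the CCAAT box alone, on the opposite strand, 21 bases before the start. Of 32851 windows of this length, 16.6% hold ACGTG, 12.4% hold TATAAA and 33.8% hold CCAAT. No motif was shared by the pair. The RefSeq start of 2610528A11Rik lies inside the longer GENCODE gene. The Pzp window held no match to any of the motifs. Gm6300 resembled Slc7a12, a transporter-like membrane protein of the kidney whose gene lies 103 kb away on the same chromosome, with 75.7% identity over 1396 aligned bases and no identical run longer than 47 bases. A stretch of 90 aligned bases with average identity is shown, mismatches in capitals, because the Gm6300 count could have held reads of its relative.
Gm6300-201, bases 205 to 294: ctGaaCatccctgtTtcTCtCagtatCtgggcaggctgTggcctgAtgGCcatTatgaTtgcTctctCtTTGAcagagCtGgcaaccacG
Slc7a12-201, bases 212 to 301: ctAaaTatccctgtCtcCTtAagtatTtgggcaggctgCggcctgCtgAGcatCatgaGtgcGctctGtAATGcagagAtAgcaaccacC
The stretch differed at 22 of 90 positions. Pzp was at most 69.6% identical to A2m over 2247 bases, and Anks1b 69.9% to Anks1 over 675 bases. Cdhr1, 2610528A11Rik and Gm31774 had no alignment of 200 bases or more to another gene.

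Library totals ran from 24393007 to 28304953 counts in vehicle kidney, 26314983 to 30925430 in oxaliplatin kidney, 31062858 to 39293176 in vehicle marrow and 30660153 to 41140527 in oxaliplatin marrow. Values are TMM-scaled CPM (counts relative to library size), and 3 counts, taken as the floor, corresponded to 0.0900 to 0.130 CPM in kidney and 0.0668 to 0.0975 CPM in marrow, which covers counting error only. In kidney 11.5% of 19293 tested genes were called (edgeR quasi-likelihood test, Benjamini-Hochberg adjusted p under 0.05 and a change beyond 1.5-fold), 1481 higher (7.68%) and 735 lower (3.81%). In marrow 23.3% of 22363 were called, 2589 higher and 2632 lower (11.8%). With scaling by library size alone these splits became 2245 higher and 470 lower in kidney and 3431 higher and 1984 lower in marrow. The Y-linked genes Ddx3y, Kdm5d, Uty and Eif2s3y measured 15.2 to 57.6 CPM over all 20 libraries. Xist did not exceed 0.570 CPM in kidney or 2.88 CPM in marrow. By these genes every library came from male mice, although the study's methods name male and female mice. Kidney library oxaliplatin 4 carried 132 CPM over 6 urothelial and squamous markers against 10.8 to 15.3 CPM in the other 9 kidney libraries. Without that library the log2 fold changes were 6.17 for Cdhr1, 5.42 for 2610528A11Rik, -3.12 for Pzp, -4.16 for Gm6300, -2.72 for Anks1b and -2.82 for Gm31774.

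**Figure D1:**
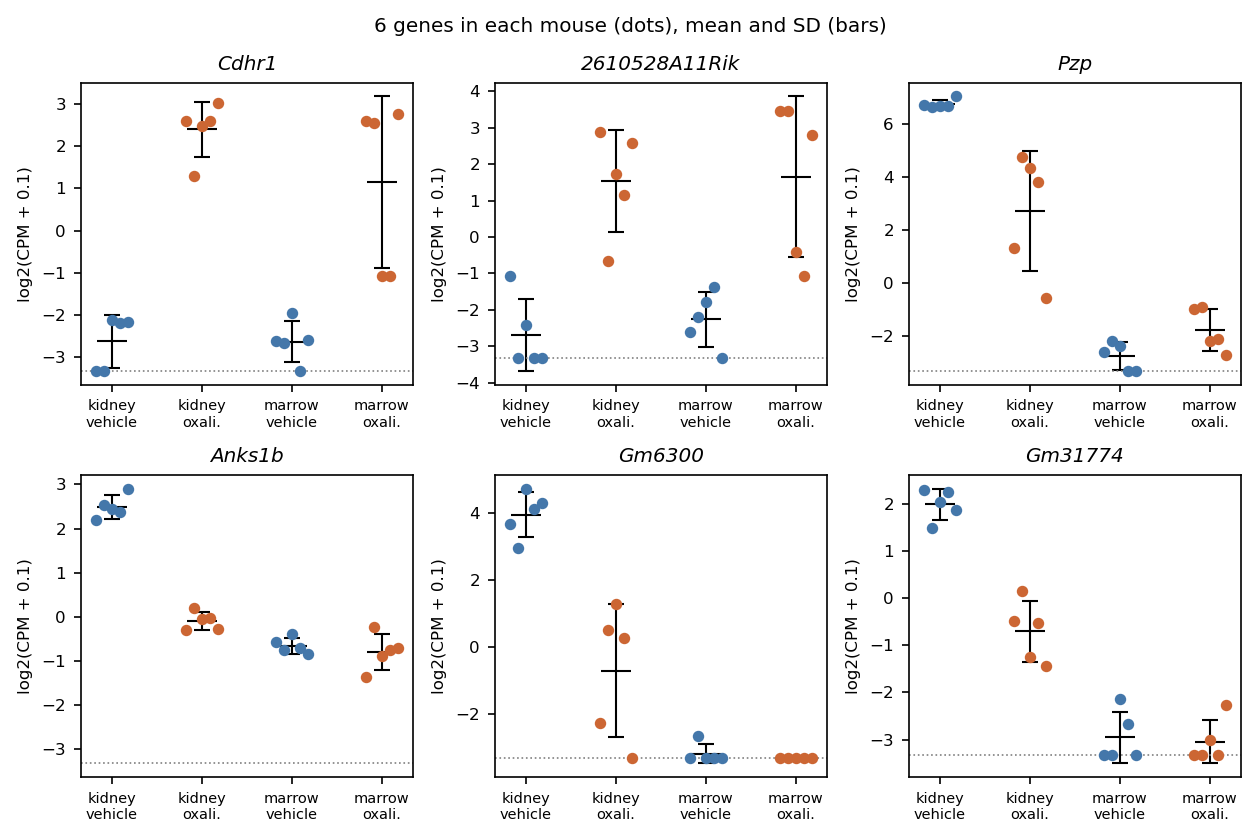
Level of each gene in every mouse as log2(CPM + 0.1), with kidney and bone marrow and both treatments on the horizontal axis; dots are mice, bars the mean and SD of 5 mice, and the dotted line is a count of 0. Cdhr1 and 2610528A11Rik are higher with oxaliplatin in both tissues, and marrow mice 3 and 4 lie below the other oxaliplatin mice.

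All 6 members were among the called genes of kidney, 2 higher and 4 lower, which the choice itself fixed. Ordered by log2 fold change among the called genes of their direction, Cdhr1 was number 3 and 2610528A11Rik number 5 of 1481, and Gm6300 was number 4, Pzp 10, Gm31774 14 and Anks1b 17 of 735. In none of the 6 did a vehicle kidney overlap an oxaliplatin kidney, which was so for 20.7% of all tested genes in either direction. This separation is not an independent result, since the members were chosen by the same contrast. Cdhr1 and 2610528A11Rik also passed the filter only through the treated kidneys.

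Cdhr1 went from the counting floor to a clear signal in kidney. Vehicle mice 1 to 5 had 0, 0, 3, 3 and 3 counts, and oxaliplatin mice had 165, 70, 152, 170 and 267, or 5.92, 2.36, 5.47, 5.96 and 8.01 CPM. Mouse 2 was the lowest of the treated group, and even its 70 counts were far above any vehicle mouse. The group means were 0.0744 ± 0.0680 CPM and 5.54 ± 2.04 CPM (SD, n = 5). The summed CPM differed 78.2-fold, with a 95% counting interval of 41.0 to 172 because the vehicle mice gave 9 counts in all. On the fitted scale the log2 fold change was 6.18 (SE 0.49), which depends on the prior count at such low vehicle levels.

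2610528A11Rik was likewise near 0 in vehicle kidney and varied more among treated mice. Its counts were 10, 0, 2, 0 and 0 in vehicle mice and 203, 16, 90, 61 and 194 in oxaliplatin mice, the latter equal to 7.29, 0.539, 3.24, 2.14 and 5.82 CPM. Mice 1 and 5 were high and mouse 2 was barely above the highest vehicle mouse, at 0.373 CPM. The means were 0.0919 ± 0.162 and 3.80 ± 2.74 CPM (SD, n = 5), a ratio of summed CPM of 40.1 (95% counting interval 22.8 to 78.1) and a log2 fold change of 5.26 (SE 1.01). Leaving out vehicle mouse 1, which held 10 of the 12 vehicle counts, gave 7.26. The coefficient of variation in treated kidneys was 71.9%, against 36.7% for Cdhr1.

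In bone marrow, whose contrast was not used to rank the kidney changes, the same adjacent pair rose. Cdhr1 counts were 2, 2, 5, 0 and 2 in vehicle marrow and 205, 182, 16, 17 and 248 in oxaliplatin marrow, or 5.91, 5.70, 0.373, 0.378 and 6.69 CPM. The treated mice fell apart into mice 1, 2 and 5, which were high, and mice 3 and 4, which were low but still above every vehicle mouse. The log2 fold change was 5.74 (SE 1.04, edgeR adjusted p = 0.00125), and all 5 of 5 treated mice lay above the vehicle range. 2610528A11Rik had 2, 4, 6, 10 and 0 counts in vehicle marrow and 380, 350, 28, 17 and 255 in oxaliplatin marrow, or 10.9, 10.97, 0.653, 0.378 and 6.87 CPM. Again mice 1, 2 and 5 were high and mice 3 and 4 low. Its log2 fold change was 5.44 (SE 1.07, edgeR adjusted p = 0.00228), with 5 of 5 treated mice above the vehicle range. Of all genes tested in marrow, 11.6% were called higher and 11.4% were higher without overlap between the groups (24.9% in either direction). Both genes passed the filter only through the 5 treated libraries, since every vehicle library was below its limit. Their direction and the 5 of 5 above the vehicle range were therefore set by the filter and add no support. With no filter beyond 1 count, the edgeR adjusted p values were 0.00927 for Cdhr1 and 0.0153 for 2610528A11Rik. Leaving out 1 library at a time gave 5.41 to 6.27 for Cdhr1 and 5.10 to 5.94 for 2610528A11Rik, with adjusted p values up to 0.00486 and 0.00724.

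The libraries of marrow mice 3 and 4 also stood apart in other genes. The GPR15 and defence peptide list is in marrow nearly all neutrophil genes (S100a8, S100a9, Camp and Lcn2). Its summed level was 4572 and 5512 CPM in oxaliplatin mice 3 and 4. It was 12503 to 14962 CPM in oxaliplatin mice 1, 2 and 5, and 9358 to 11466 CPM in vehicle mice. None of the 9 tested genes of this list, apart from 2610528A11Rik, was called in marrow by edgeR or by DESeq2 (2 had an unadjusted edgeR p under 0.05), and Defb1 and Reg3b were at 0 throughout. Adipocyte markers were higher in all treated marrows, with sums of 2122, 961, 2181, 2305 and 463 CPM against 75.9 to 142 CPM in vehicle mice, and all 5 of them (Adipoq, Cfd, Plin1, Lep and Fabp4) rose. The treated mice ordered by adipocyte markers were not ordered alike by Cdhr1, whose highest value was in mouse 5, the lowest for adipocyte markers. Whether neutrophils or adipocytes have a part in the rise of the pair was not tested, and in bulk RNA fewer cells of a type and less RNA per cell cannot be told apart.

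**Figure D2:**
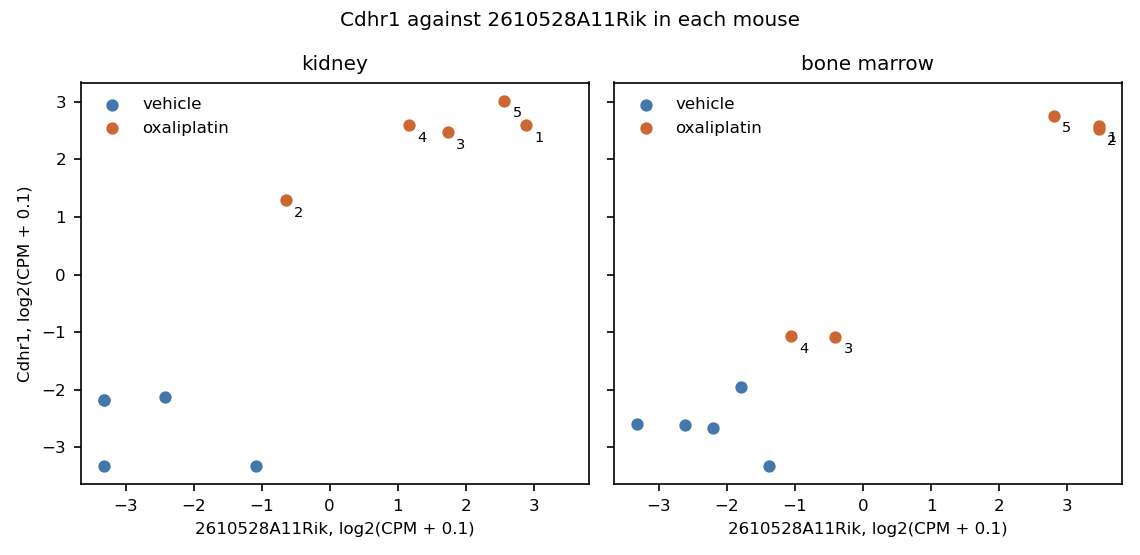
Cdhr1 against 2610528A11Rik in every mouse, both as log2(CPM + 0.1), in kidney (left) and bone marrow (right); numbers are the oxaliplatin replicates. In marrow, mice 3 and 4 lie between the vehicle mice and treated mice 1, 2 and 5, while in kidney mouse 2 has the lowest value of both genes among treated mice.

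Within marrow the pair moved together over mice. With each group's mean subtracted, Pearson's r between Cdhr1 and 2610528A11Rik was 0.82 over 10 marrow libraries and Spearman's rho was 0.77. This rested on mice 3 and 4, without which r was -0.28. Kidney gave r = 0.24 over 10 libraries, and leaving out 1 library moved it from -0.30 to 0.70. The ratio of Cdhr1 to 2610528A11Rik counts among treated mice ranged from 0.520 to 1.00 in marrow and from 0.813 to 4.38 in kidney, where mouse 2 was the highest. In 4 of 5 treated kidneys Cdhr1 had between 152 and 267 counts, while 2610528A11Rik in those same kidneys had between 61 and 203.

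The genes around the pair did not share the rise. Lrit2, Lrit1 and Rgr, retinal genes on the far side of Cdhr1, had means of at most 0.0636 CPM in either kidney group, and they were below the filter in both tissues. Ghitm, an inner mitochondrial membrane protein gene 6.07 kb upstream of 2610528A11Rik, averaged 404 CPM in vehicle and 318 CPM in oxaliplatin kidney, a log2 fold change of -0.34 (SE 0.071, edgeR adjusted p = 0.0017) that missed the 1.5-fold limit, and in marrow its log2 fold change was -0.50. Of the 30 other annotated genes nearest to the 6 members, 11 were tested in kidney and 1, Slc7a12, was called, and 8 were tested in marrow with 1 called, Ikbip near Anks1b.

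**Figure D3:**
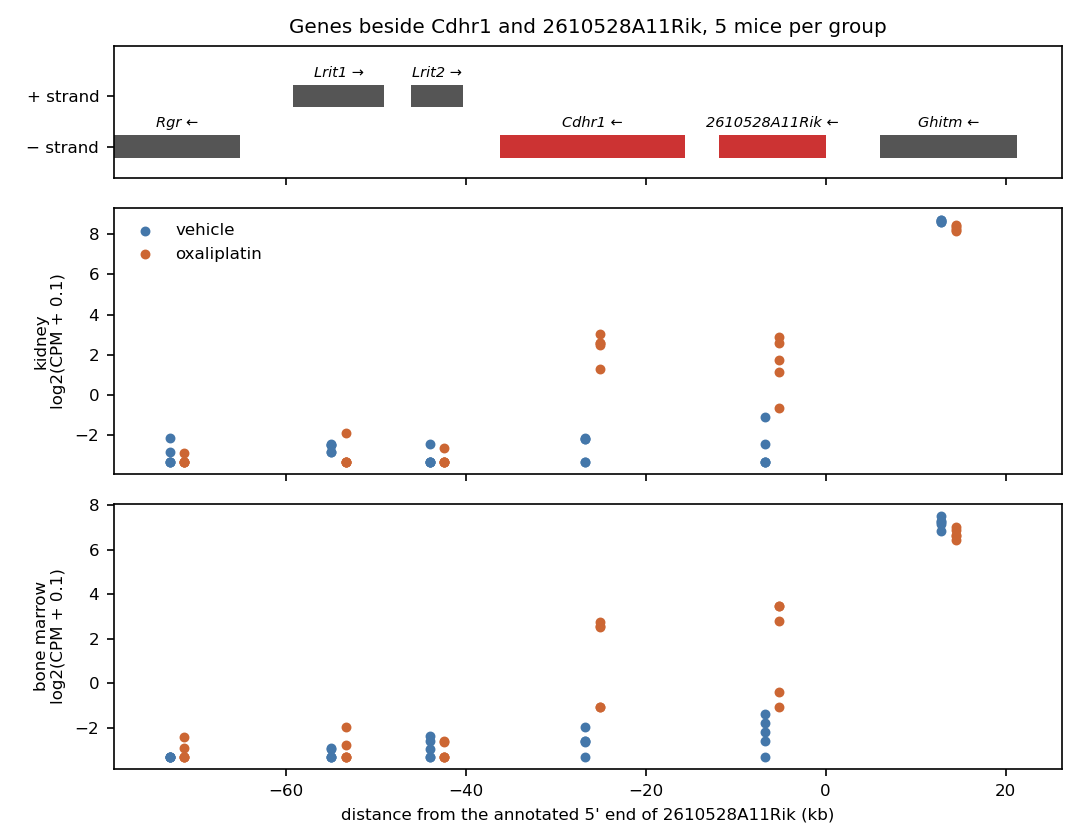
Genes beside Cdhr1 and 2610528A11Rik (top, arrows give the strand) and their levels in each mouse as log2(CPM + 0.1) in kidney (middle) and bone marrow (bottom), placed at the middle of each gene by distance in kb from the annotated 5′ end of 2610528A11Rik. Treated mice are above vehicle mice at the adjacent pair, while Lrit1, Lrit2 and Rgr stay near 0 and Ghitm is slightly lower.

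The 4 remaining members were lower in oxaliplatin kidney. Pzp had 2826, 2626, 2361, 2540 and 3275 counts in vehicle mice and 67, 793, 556, 397 and 19 in oxaliplatin mice, which is 105, 100.1, 102, 102 and 133 CPM against 2.40, 26.7, 19.99, 13.9 and 0.570 CPM. Vehicle kidneys were close to one another, with a coefficient of variation of 12.6%, and treated kidneys were spread widely, at 88.2%. Mice 1 and 5 were the lowest of the treated mice. The means were 108 ± 13.6 and 12.7 ± 11.2 CPM (SD, n = 5), an 8.71-fold difference in summed CPM and a log2 fold change of -3.10 (SE 0.76). Gm10069, the antisense partner, did not exceed 1.37 CPM in any kidney.

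Gm6300 was lower in abundance, and treated mice 1 and 5 were again the lowest, while its highest treated mouse was 3 and that of Pzp was 2. It had 336, 200, 608, 426 and 482 counts in vehicle mice (12.5, 7.62, 26.3, 17.1 and 19.5 CPM) and 3, 39, 65, 31 and 0 in oxaliplatin mice (0.108, 1.31, 2.34, 1.09 and 0 CPM). Treated mouse 1 was at the 3-count floor and mouse 5 at 0. The means were 16.6 ± 7.06 and 0.969 ± 0.960 CPM (SD, n = 5), and the log2 fold change was -4.12 (SE 0.73). Slc7a12, its closest relative, went the other way, from 1.47 to 6.17 CPM in vehicle kidneys to 8.09 to 36.9 CPM in treated kidneys, a log2 fold change of 2.72 (SE 0.50, edgeR adjusted p = 0.0042).

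Anks1b had the most even change. Its counts were 120, 149, 123, 126 and 182 in vehicle kidneys and 20, 31, 24, 25 and 24 in oxaliplatin kidneys, that is 4.48, 5.68, 5.31, 5.07 and 7.37 CPM against 0.718, 1.04, 0.863, 0.877 and 0.720 CPM. No treated mouse stood apart, and the coefficient of variation of the treated group, 16.0%, was the lowest of the 6 members. The log2 fold change was -2.72 (SE 0.19), a 6.61-fold difference in summed CPM (95% counting interval 5.45 to 8.07). In marrow Anks1b had 10 to 24 counts in every library, and its log2 fold change of -0.12 (SE 0.33, edgeR adjusted p = 0.818) was smaller than its error, with 2 of 5 treated mice below and 1 of 5 above the vehicle range. Counts per gene do not separate its transcripts.

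Gm31774 had 129, 71, 93, 116 and 88 counts in vehicle kidneys (4.82, 2.71, 4.02, 4.67 and 3.56 CPM) and 17, 30, 9, 17 and 9 in oxaliplatin kidneys (0.610, 1.01, 0.324, 0.596 and 0.270 CPM). Mouse 2 was the highest of the treated mice and mice 3 and 5 were the lowest. The means were 3.95 ± 0.861 and 0.562 ± 0.294 CPM (SD, n = 5), with a log2 fold change of -2.81 (SE 0.29). Hsd17b2, the enzyme gene that surrounds it and that oxidises estradiol and testosterone, fell from 14.1 to 18.02 CPM in vehicle kidneys to 5.31 to 7.54 CPM in treated kidneys, with a log2 fold change of -1.28 (SE 0.11, edgeR adjusted p = 6.5e-07). Use of strand in the counting is not given in the sources used here, so reads of Gm31774 and reads from introns of Hsd17b2 cannot be told apart.

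These last members were at or near the floor in marrow, apart from Anks1b. Pzp had 0 to 4 counts in vehicle and 2 to 14 in oxaliplatin marrow, 9 and 41 in all, a ratio of summed CPM of 3.89 with a 95% counting interval of 1.86 to 9.10. Gm6300 had 2 counts in the 5 vehicle libraries together and 0 in the treated ones, and Gm31774 had 6 and 5. All 3 were below the filter on low counts, so a change in marrow was not detectable at this depth for Gm6300 and Gm31774, and no test was made.

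**Figure D4:**
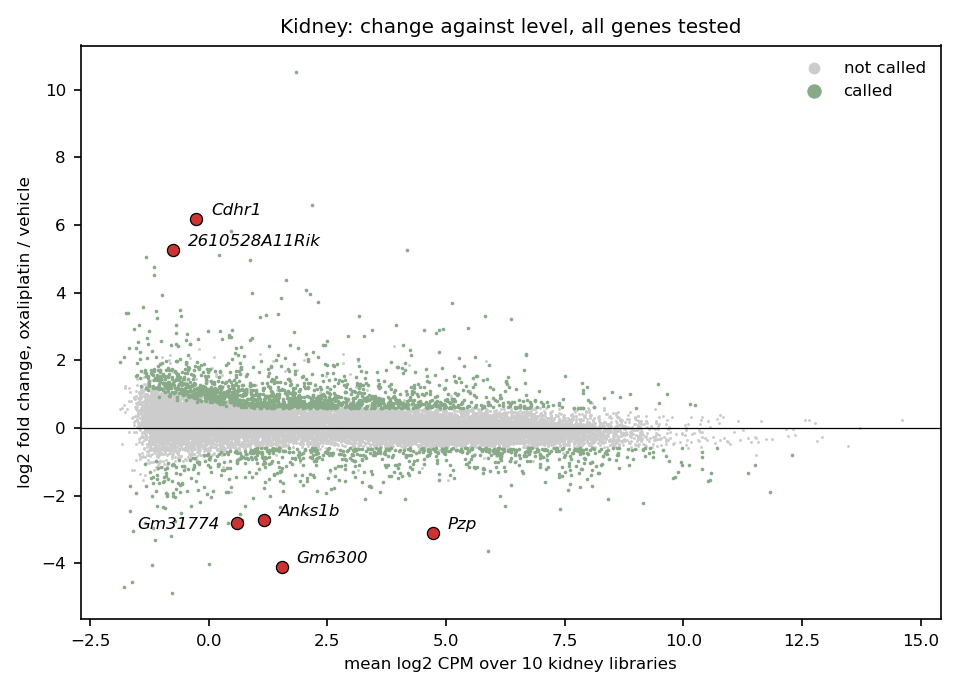
Log2 fold change of oxaliplatin over vehicle kidney against mean log2 CPM over 10 kidney libraries for 19293 genes, with called genes in green and the 6 members as labelled red points. Pzp is the most abundant member, and Cdhr1 and 2610528A11Rik lie at the low end of expression with the largest rises of the 6.

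Levels can be set against each other once divided by exon length. In vehicle kidney the order was Pzp (16.9 ± 2.13 CPM per kb), Gm6300 (11.1 ± 4.71), Gm31774 (2.89 ± 0.631), Anks1b (0.385 ± 0.0752), 2610528A11Rik (0.111 ± 0.195) and Cdhr1 (0.0172 ± 0.0157; SD, n = 5). The ranges of Pzp and Gm6300 overlapped, as did those of Anks1b and 2610528A11Rik and of 2610528A11Rik and Cdhr1, whereas Gm31774 was apart from both of its neighbours. In oxaliplatin kidney the order of means was 2610528A11Rik (4.59 ± 3.30 CPM per kb), Pzp (1.98 ± 1.75), Cdhr1 (1.28 ± 0.470), Gm6300 (0.647 ± 0.641), Gm31774 (0.411 ± 0.215) and Anks1b (0.0582 ± 0.00929). Each gene there overlapped its neighbours in the order except Anks1b, which was below every Gm31774 value.

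Treated mice 1 and 5 had the lowest Pzp and Gm6300 and the highest 2610528A11Rik. The genes whose kidney pattern was most like each member were ranked by Pearson's r of log2 CPM over 10 libraries with group means subtracted, as a description. For Pzp they were Kap (r = 0.99), the glycosyltransferase gene Ugt3a2 (0.99) and the organic anion transporter gene Slco1a1 (0.99), and for Gm6300 the acetyltransferase-family gene Nat8f1 (0.99), Tbc1d2b (0.98) and the steroid hydroxylase gene Cyp7b1 (0.98). Pzp and Gm6300 correlated with each other at r = 0.94 and Spearman's rho = 0.90. Without the 2 libraries farthest from the Pzp median, treated mice 2 and 5, r was 0.90 for this pair and 0.99 for Pzp with Kap. Kap measured 7258 to 8998 CPM in vehicle kidneys and 831, 3509, 3500, 2897 and 362 CPM in treated mice 1 to 5, so that mice 1 and 5 were again the lowest, as they were for the haemoglobin gene Hba-a1. Gm6300 and Slco1a1 had the same order of group-centred values over all 10 kidneys (rho = 1), and Gm6300 and Slc7a12 ran opposite (r = -0.78).

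**Figure D5:**
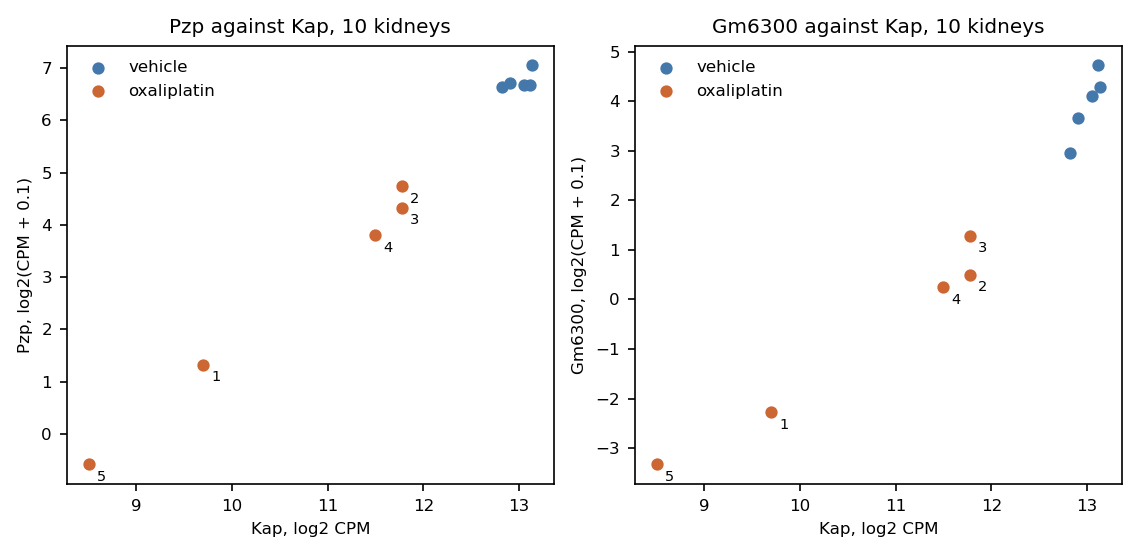
Pzp (left) and Gm6300 (right), each as log2(CPM + 0.1), against Kap as log2 CPM in 10 kidneys; numbers are the oxaliplatin replicates. Treated mice 5 and 1 have the lowest values on both axes, and vehicle kidneys are at the upper right.

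The other members had their own nearest genes. Cdhr1 was nearest to Ly6c1 (r = 0.94), Nfil3 (0.94) and Laptm4b (0.93), none of them called in kidney. 2610528A11Rik was nearest to Ptafr (0.95), the receptor for platelet-activating factor, to Dnajc5 (0.93) and to Gm7729 (0.92). Anks1b went with Abhd13 (0.91) and with the mitotic spindle genes Troap (0.91) and Spag5 (0.88). Gm31774 went with Dcun1d4 (0.95), the cystine exporter gene Ctns (0.95) and H2ac6 (0.90). Of these genes only Troap was called in kidney, with a log2 fold change of 1.44, opposite in direction to that of Anks1b. With Hsd17b2, Gm31774 had r = 0.64, from 0.36 to 0.81 when 1 library was left out. Between 2610528A11Rik and Anks1b r was -0.81 (-0.92 to -0.74 with 1 library left out). Without treated mouse 2 and vehicle mouse 1 it was -0.58. The r values of the nearest genes are the top of a ranking over 19293 genes in 10 libraries that share depth and scaling. Vehicle kidneys held only 0 to 3 counts of Cdhr1 and 0 to 10 of 2610528A11Rik, so counting error enters the r values of both. With scaling by library size alone, r was 0.75 for Gm31774 with Dcun1d4 and 0.78 for Anks1b with Abhd13. It was 0.85 for 2610528A11Rik with Dnajc5 and for Gm6300 with Tbc1d2b, and at least 0.88 for every other gene named from the ranking.

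Over the kidneys the red cell marker Hba-a1 moved with Pzp and Gm6300 and against 2610528A11Rik. Adipocyte markers were highest in treated mice 1 and 5. Hba-a1, the haemoglobin alpha chain, measured 17.4, 257, 81.3, 253 and 17.6 CPM in treated mice 1 to 5 and 91.7 to 156 CPM in vehicle mice, which is the reverse order of 2610528A11Rik among the treated mice. Over 10 kidneys the group-centred r of Hba-a1 was -0.68 with 2610528A11Rik and 0.87 with Pzp (0.82 to 0.92 with 1 library left out). With Gm6300 it was 0.84 (0.75 to 0.95), with Anks1b 0.57, with Gm31774 0.55 and with Cdhr1 -0.30. In marrow the r of Hba-a1 with 2610528A11Rik had the opposite sign, 0.83 (0.70 to 0.91 with 1 library left out). The 5 red cell markers summed to 226 to 344 CPM in vehicle and 86.0 to 579 CPM in treated kidneys, and of the 4 tested 1 was called, Slc4a1, which rose. The 5 adipocyte markers summed to 19.0 to 39.5 CPM in vehicle mice and to 166, 57.5, 71.5, 91.1 and 153 CPM in treated mice, with 3 of 4 tested called higher (Adipoq, Cfd and Fabp4). The part of blood left in the tissue or of fat in the levels of the members was not tested.

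Among the androgen-responsive genes, 8 of 9 tested were called in kidney, 6 lower and 2 higher, with a median log2 fold change of -1.30 against 0.02 over all tested genes. Slco1a1 (-3.63, edgeR adjusted p = 0.0035), Kap (-1.90), Odc1, the polyamine synthesis enzyme (-1.46), Cyp2j13 (-1.40), Cyp2e1 (-1.30) and Gusb (-1.19) fell. The prolactin receptor gene Prlr (2.46) and Slc7a12 (2.72), both known to be higher in female than in male mouse kidney, rose. Cyp7b1 had a log2 fold change of -0.99 and was not called. Summed levels of the 9 genes were 10600 to 13499 CPM in vehicle and 1336 to 5460 CPM in treated kidneys.

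The family of Pzp did not move as a block. Of 7 other tested genes of the alpha-2-macroglobulin family and its receptor, 2 were higher in kidney (complement C3, 2.81, and Cd109, 0.89, as log2 fold changes), 1 was lower (C4a, -1.58) and 4 were not called, among them A2m (0.99, SE 0.53), the receptor gene Lrp1 (0.46) and the chaperone gene Lrpap1 (-0.46). C4a and C4b are near-identical copies, so the split of their counts is uncertain. In marrow, where Pzp was near the floor, A2m was lower (-2.61) and C4a, C4b, Cd109 and Mug1 were higher.

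Cadherins other than Cdhr1 also rose more often than they fell. In kidney 10 of 22 tested were called higher and 1, Cdh2 (log2 fold change -0.72), lower, with a median of 0.34 over the list against 0.02 over all tested genes. The rises were small beside that of Cdhr1: Pcdh9 (1.54), the endothelial cadherin Cdh5 (0.99) and the giant cadherin Fat4 (0.89) were the largest. Its nearest relatives by name, the brush border genes Cdhr2 (0.27) and Cdhr5 (-0.24), were not called. In marrow 11 of 18 were higher and Cdh1 was lower (-2.22). Of the photoreceptor genes 8 were tested in kidney. Prom1 (1.22), which binds Cdhr1 in photoreceptors, and the transducin gene Gnat1 (1.11) were higher and Pde6a (-1.90) was lower. In marrow 1 of 8, Abca4 (1.20), was higher, as were 11.6% of all genes tested there. Endothelial and stromal markers rose in kidney too, 2 of 5 and 4 of 5 tested.

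For 2610528A11Rik the list held its receptor and other secreted defence genes. Gpr15 had at most 0.0673 CPM in any kidney and was not tested there, and in marrow it measured 0.399 to 0.725 CPM in vehicle and 0.210 to 0.401 CPM in treated mice, a log2 fold change of -0.87 (SE 0.34, edgeR adjusted p = 0.068). Of 7 other tested genes in kidney, the protease inhibitor Slpi (2.55), the siderophore binder Lcn2 (2.06) and Wfdc2 (0.60) rose, and the chemokine genes Ccl28 (-1.61) and Cxcl14 (-0.71) fell. Of the ANKS family and the synaptic partners of Anks1b, 2 of 18 tested were called in kidney, both higher (Epha2, 0.71, and Shank1, 0.63), and the other family members Anks1 (0.24), Anks3 (-0.05), Anks4b (-0.20) and Anks6 (0.01) were not called. In marrow 4 of 18 were higher and 2 lower, beside 11.6% and 11.8% of all genes tested there.

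Lists of the wider response stood as follows. Over all tested genes, 7.68% were called higher and 3.81% lower in kidney, and 11.6% higher in marrow. Of 14 p53 target genes 11 rose in kidney, led by the cell cycle inhibitor Cdkn1a (5.25) and the receptor gene Eda2r (4.98), and 9 rose in marrow. Injury genes were higher for 3 of 9 in kidney (Lcn2, Spp1 and Vim), while Havcr1, the classical tubular injury marker, had 0.11 (SE 0.33). Proximal tubule genes were lower for 2 of 8 (Slc22a6 and Slc7a13), podocyte genes higher for 4 of 5, leukocyte genes lower for 1 of 4 (Csf1r) and liver genes higher for 1 of 5 (Fgb). None of the 5 loop and distal tubule genes, the 5 collecting duct genes, the 6 urothelial genes, the 1 adrenal gene tested or the 4 sex-linked genes tested was called in kidney by edgeR, with 4, 4, 1, 1 and 0 of them at an unadjusted p under 0.05. DESeq2 called 1 adrenal gene and none of the others.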

How the data were processed

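RNA was measured in kidney and bone marrow after vehicle or oxaliplatin, with 5 libraries in each of the groups. The authors deposited raw counts per gene, 1 table per tissue. According to the study's methods these are uniquely aligned, unambiguous reads counted in Partek Flow after alignment with STAR, and the submitters' processing notes also list featureCounts, Subread and Salmon. Strand use is not given in the sources used here. Each table had 55774 lines. Of these, 287 repeated an earlier identifier with the same values and 1 lacked a value, and all of them were dropped. Samples were grouped by their titles.

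In each tissue, genes passing filterByExpr (minimum count 10) were normalised with TMM. Treatment was the only term of the model. The quasi-likelihood F test (robust option, edgeR 4.0.16 under R 4.3.3) gave two-sided p values, with Benjamini-Hochberg adjustment over all tested genes. Adjusted p values come from this test unless DESeq2 is named. The step was tested on simulated data. CPM of kidney and marrow were scaled separately. Counting intervals are exact binomial and cover counting error only. Replicates of a group differed by more than sampling noise (chi-square per degree of freedom at least 7.51).

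The members and the 21 gene lists were chosen with earlier results of these data known, and the adjusted p values of kidney members were left out since the same contrast chose them. Named genes are the members, the called genes of the lists or otherwise those with the largest changes, the 3 genes most like each member, and the neighbours. Sequences came from RefSeq (GRCm38.p6) and GENCODE M21 (GRCm38), and relatives were found with blastn. RefSeq promoter windows existed for 4 of the 6 members. Alternatives were DESeq2 1.42.0, its size factors, library size alone, other filters, a replicate block, a Y-linked covariate, a prior count of 2 and leaving out each replicate. Replicate numbers did not pair the mice.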

Additional observations from a re-analysis of the deposited data

Results flagged for a closer look

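Values of 1 mouse that stood far from the other 4 of its group were looked for in the 23 member groups whose values differed. Chance flags about 1 in 20 of groups with normally distributed values, a rate that does not hold for counts near 0. In vehicle kidney, 2610528A11Rik was 0.373 CPM in mouse 1 and 0 to 0.0864 CPM in the others, and Pzp was 133 CPM in mouse 5 and 100.1 to 105 CPM in the others. In marrow, Gm6300 was 0.0582 CPM in vehicle mouse 2 and 0 in the others, and Gm31774 was 0.108 CPM in oxaliplatin mouse 5 and 0 to 0.0233 CPM in the others. The marrow values rest on 2 and 4 counts, and a group with 4 values at 0, as for Gm6300, is always flagged.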

How the results depend on the processing

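The count of called genes stayed within 1.5 times its value under every alternative run: 1903 to 2715 in kidney (2216 as reported) and 4469 to 6010 in marrow (5221), and 1761 to 2424 and 4725 to 5727 with 1 replicate left out. Library size alone moved the median log2 fold change of all genes to 0.16 in kidney and 0.11 in marrow. The kidney fold changes of the 6 members kept their direction in 104 of 104 recomputations. A prior count of 2 lowered that of Cdhr1 to 5.27, and leaving out 1 replicate gave 4.90 to 7.26 for 2610528A11Rik, the highest without vehicle mouse 1. In marrow, Cdhr1 and 2610528A11Rik stayed called under every alternative that kept them in the test. Requiring 10 counts in every library removed both. The lowest values were 4.51 and 4.51 with the Y-linked covariate, and adjusted p values reached 0.00951 and 0.0376. Anks1b in marrow changed sign to 0.029 with library size alone and lay between -0.31 and 0.023 with 1 replicate left out, never near the threshold. Of the 40 correlations beyond 0.5 either way, recomputed 520 times, 2 changed sign, both in marrow without mice 3 and 4: Cdhr1 with 2610528A11Rik (-0.28) and with Hba-a1 (-0.44). Of the 22 weaker ones 17 changed sign under at least 1 alternative, in 29 of 286 recomputations. Leaving out 2 mice was chosen after seeing the data. Of 294 list counts 23 moved by over 1.5 times.

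Same-numbered vehicle and oxaliplatin mice did not deviate together (r from -0.15 to 0.08 in kidney and from -0.12 to 0.23 in marrow), and 2 of 10 libraries in each tissue correlated best with their own number. With the replicate number as a block 2017 genes were called in kidney and 4968 in marrow, and the marrow values were 5.38 for Cdhr1 (adjusted p = 0.000986) and 4.70 for 2610528A11Rik (adjusted p = 0.0376). Depth limits Cdhr1 and 2610528A11Rik in vehicle mice and Pzp, Gm6300 and Gm31774 in marrow, where a few counts set the level.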
